A study of Mus musculus with 9 samples.

Results

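Fibrillar collagens are made as procollagen chains that are modified in the endoplasmic reticulum before they fold into a triple helix. Prolyl 4-hydroxylases, made of an alpha subunit (P4ha1, P4ha2 or P4ha3) and the beta subunit P4hb, hydroxylate prolines and so stabilise the helix at body temperature, and lysyl hydroxylases (Plod1, Plod2 and Plod3) hydroxylate lysines that later carry sugars or crosslinks. HSP47, encoded by Serpinh1, is a chaperone that binds the folded helix on its way out of the cell, where lysyl oxidases (Lox, Loxl2 and Loxl4 among them) oxidise lysines so that the chains become covalently crosslinked. Hydroxylation of telopeptide lysines by the Plod2 product leads to the stable crosslinks typical of cartilage. These 10 genes, out of 55471 in the deposited tables, were listed by name for their role in these steps, with earlier results of these data known. All 10 passed the filter on low counts, which left 15362 genes to test.

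The RNA came from primary articular chondrocytes of WT mice at postnatal day 5, isolated from femoral condyles and tibial plateaus, and all plates carried COLpep, a collagen peptide that binds the receptor OSCAR. There were 3 cultures each of Control (infected with Ad-Control according to the methods), Ad-OSCAR (a virus that makes the cells overexpress OSCAR) and Ad-OSCAR + 5-ASA, in which the infected cells also received 10 µM 5-aminosalicylic acid, a drug for ulcerative colitis. The labels give 400 MOI, 3 days of culture before infection and 36 h between infection and drug, whereas the methods give 800 MOI, 2 days and 24 h with or without the drug, and both give 2 h of infection. The strain is not in the labels, and no source used here says whether the 3 cultures of a group came from separate animals, so the p-values measure only the spread between these cultures, which may be technical.

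Libraries held 19733448 to 28192740 counts. Oscar, the overexpressed gene, lay at 0.19 to 0.33 TPM in Control, 6549 to 7127 TPM in Ad-OSCAR and 2806 to 3654 TPM in Ad-OSCAR + 5-ASA, so each label matched its virus. TPM are scaled to transcript length and library and allow genes to be set beside each other, while CPM (library-scaled counts after TMM) were used for the tests between groups. The acute-phase gene Saa3 took 3.12% to 3.22% of all TPM in Control and 12.7% to 15.2% in both other groups. TPM share a fixed total, so the other values depend on this share and on the falls of other genes. For Ad-OSCAR against Control the median log2 fold change of all genes was 0.03 on log2(TPM + 1) and 0.02 with TMM. For 5-ASA against Ad-OSCAR it was -0.08 and -0.004. The labelled cell type was present in Control, where 10 chondrocyte markers summed to 14068 to 16034 TPM. All 10 of these markers were downregulated by Ad-OSCAR, where 32.2% of all genes tested fell and 32.7% rose. Their sum was 878 to 1011 TPM with Ad-OSCAR and 975 to 1162 TPM with 5-ASA. A fall of a bulk level cannot tell fewer cells of a type from less RNA per cell. Fibroblast markers (6 genes) summed to 4918 to 5070, 4773 to 5311 and 5312 to 5462 TPM in Control, Ad-OSCAR and Ad-OSCAR + 5-ASA. However, 4 of the 6 fell with Ad-OSCAR and 2 rose, beside the same shares of all genes tested (median log2 fold change -1.04, from -2.53 for Thy1 to 1.86 for Prg4). Macrophage markers (6 genes) summed to 19.6 to 24.3, 48.1 to 49.9 and 36.2 to 39.2 TPM, with Adgre1, Csf1r and Itgam under 1 TPM in every culture. Of the 4 tested, Cd68, Cd14 and Lyz2 rose with Ad-OSCAR (log2 fold changes 2.06, 1.07 and 0.43) and Csf1r was not called, beside the same shares. With 5-ASA Cd68 (-0.38) and Cd14 (-0.29) fell, where 7.38% of all genes tested fell and 10.4% rose. Osteoclast markers summed to 24.6 to 28.0 TPM. Of the 4 tested Mmp9, Calcr and Ctsk rose with Ad-OSCAR (log2 fold changes 2.82, 3.16 and 0.59) and Acp5 fell (-0.62), where 32.2% of all genes tested fell and 32.7% rose. Endothelial, skeletal muscle and erythroid markers summed to at most 2.31 TPM in any culture. The part of these shifts in the values that follow was not tested.

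The plot of levels by culture shows all 10 genes in all 9 cultures.

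**Figure D1:**
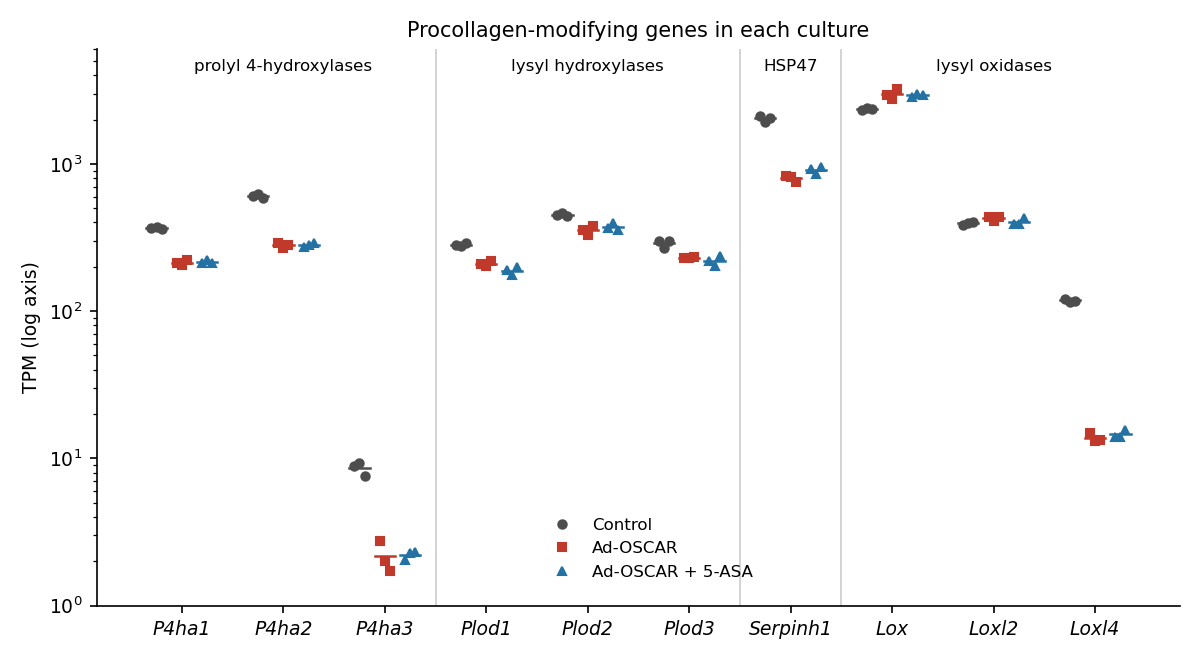
Level of each gene in TPM on a log axis, with 1 point per culture and a short line at the group mean. Black circles are Control, red squares Ad-OSCAR and blue triangles Ad-OSCAR + 5-ASA. Serpinh1, P4ha1, P4ha2, P4ha3 and Loxl4 sit lower in both Ad-OSCAR groups than in Control, while Lox sits higher.

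In Control chondrocytes the order of the levels per length was Lox (2361 ± 25.4 TPM, SD, n = 3), Serpinh1 (2039 ± 96.0 TPM), P4ha2 (605 ± 16.7 TPM), Plod2 (452 ± 11.5 TPM), Loxl2 (395 ± 7.46 TPM), P4ha1 (368 ± 8.08 TPM), Plod3 (288 ± 17.8 TPM), Plod1 (282 ± 7.35 TPM), Loxl4 (118 ± 3.45 TPM) and P4ha3 (8.58 ± 0.931 TPM). Among neighbours in this order, Plod3 and Plod1 overlapped and the others did not. With Ad-OSCAR, Loxl2 (427 ± 17.6 TPM, SD, n = 3) came above Plod2 (353 ± 26.4 TPM) and P4ha2 (279 ± 11.0 TPM), and Serpinh1 lay at 800.2 ± 40.0 TPM against 2967 ± 232 TPM for Lox. P4ha1 and Plod1 overlapped in that group. With 5-ASA the order was kept, and the overlapping neighbours were Loxl2 with Plod2 and Plod3 with P4ha1.

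Sequence upstream of the start was at hand for 7 of the 10 genes (RefSeq, build GRCm38.p6, 250 bases before the start). It is shown for P4ha1, Serpinh1, P4ha3 and Loxl4, a set of a widely used and a minor prolyl 4-hydroxylase subunit, the chaperone and a crosslinking enzyme, which fell with Ad-OSCAR by log2 fold changes of -0.84 to -3.13. Capitals mark ACGTG, the core of the hypoxia response element, and GGGCGG, the GC box, on either strand.
P4ha1, chr10:59323046-59323295, plus strand: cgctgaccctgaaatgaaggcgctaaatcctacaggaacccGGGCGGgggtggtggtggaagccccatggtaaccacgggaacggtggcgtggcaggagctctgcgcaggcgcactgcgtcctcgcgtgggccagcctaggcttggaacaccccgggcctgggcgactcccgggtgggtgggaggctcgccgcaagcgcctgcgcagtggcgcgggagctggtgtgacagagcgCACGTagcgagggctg
Serpinh1, chr7:99353240-99353489, minus strand: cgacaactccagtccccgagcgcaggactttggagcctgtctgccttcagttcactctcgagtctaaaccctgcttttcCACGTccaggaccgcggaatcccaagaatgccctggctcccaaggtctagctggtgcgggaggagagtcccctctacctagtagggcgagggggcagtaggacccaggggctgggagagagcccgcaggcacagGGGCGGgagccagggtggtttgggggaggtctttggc
P4ha3, chr7:100285270-100285519, plus strand: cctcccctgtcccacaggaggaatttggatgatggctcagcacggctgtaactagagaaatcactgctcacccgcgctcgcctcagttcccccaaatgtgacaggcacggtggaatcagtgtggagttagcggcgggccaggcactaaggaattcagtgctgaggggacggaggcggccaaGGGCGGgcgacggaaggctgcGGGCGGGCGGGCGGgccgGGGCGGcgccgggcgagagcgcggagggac
Loxl4, chr19:42612807-42613056, minus strand: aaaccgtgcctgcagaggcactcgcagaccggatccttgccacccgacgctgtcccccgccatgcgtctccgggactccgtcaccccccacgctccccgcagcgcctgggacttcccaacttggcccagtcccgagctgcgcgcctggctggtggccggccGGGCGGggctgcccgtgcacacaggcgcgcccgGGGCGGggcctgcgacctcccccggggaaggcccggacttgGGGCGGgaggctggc
In P4ha1 the ACGTG core lay 16 bases before the start and in Serpinh1 171 bases before it, both on the strand opposite to the gene. P4ha2 and Plod3 held the same letters at 78 and 54 bases before their starts, and P4ha3, Plod1 and Loxl4 held none. The core was present in 16.6% of all 32851 upstream windows of this length. P4ha3 held 5 GC boxes (3 of them overlapping in 1 run), Loxl4 3, P4ha2 and Plod1 2 each, P4ha1 and Serpinh1 1 each and Plod3 0, beside 32.7% of all windows with at least 1. TATAAA, the TATA box, was found in Plod1 and in 12.4% of all windows. GAANNTTC, a pair of heat shock units, and TGATGNAA, an ATF4-C/EBP composite, were in none of the 7 windows and in 6.69% and 3.45% of all windows. The 7 windows held 55.6% to 76% G and C, beside a median of 52.4% for all windows. The part of this in the matches was not tested. These matches are letters in a window, and nothing here measured binding.

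OSCAR overexpression lowered the hydroxylases and HSP47 and raised Lox. Of the 10 genes, 8 fell and 2 rose (edgeR quasi-likelihood test, Benjamini-Hochberg adjusted over all genes tested), where 32.2% of all genes tested fell and 32.7% rose. The median log2 fold change was -0.65 over the 10 genes and 0.02 over all genes tested. With the study's limits (log2 fold change beyond 1.5 and adjusted p below 0.05) P4ha3 and Loxl4 counted as downregulated, where 5.39% of all genes tested did, and none counted as upregulated, where 4.57% did. Control and Ad-OSCAR values did not overlap in CPM for any of the 10, and they did not overlap for 69.0% of all genes tested.

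**Figure D2:**
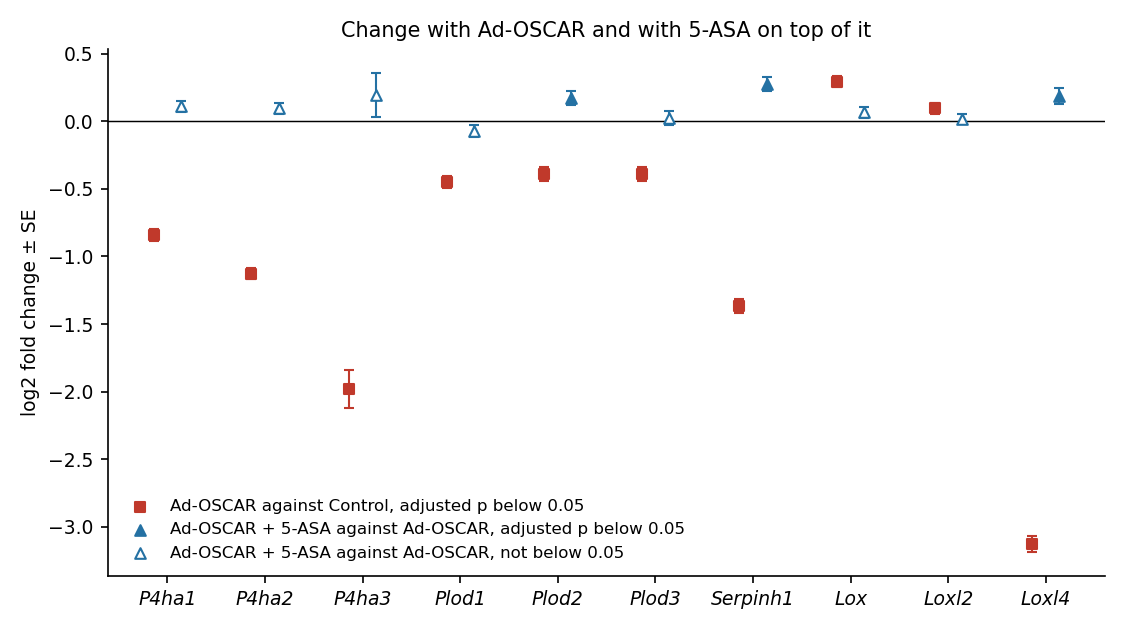
Log2 fold change (y axis, ± SE from the edgeR fit) of each gene for Ad-OSCAR against Control (red squares) and Ad-OSCAR + 5-ASA against Ad-OSCAR (blue triangles). Filled symbols have an adjusted p below 0.05. The red symbols span -3.13 for Loxl4 to 0.29 for Lox, and the blue symbols lie between -0.07 and 0.28.

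P4ha1, the widely used alpha subunit, measured 369, 375 and 359 TPM in the Control cultures, 213, 205 and 223 TPM in the Ad-OSCAR cultures and 212, 222 and 212 TPM with 5-ASA. Every Control culture was above every other culture, and the 2 Ad-OSCAR groups overlapped in TPM. Its log2 fold change with Ad-OSCAR was -0.84 (SE 0.04, adjusted p = 3.4e-12, edgeR). P4ha2, the alpha subunit with the highest level in these cells, measured 601, 623 and 590.2 TPM in Control, 289, 267 and 282 TPM with Ad-OSCAR and 272, 281 and 290.3 TPM with 5-ASA. The separation had the same form, and the log2 fold change was -1.13 (SE 0.04, adjusted p = 2.9e-14, edgeR). P4ha3, a minor alpha subunit, measured 8.88, 9.33 and 7.54 TPM in Control, 2.74, 2.02 and 1.73 TPM with Ad-OSCAR and 2.04, 2.29 and 2.31 TPM with 5-ASA. It rested on 163 to 246 counts in Control and 55 to 88 in Ad-OSCAR, and its log2 fold change of -1.98 had the largest error of the 10 (SE 0.14, adjusted p = 5.1e-10, edgeR). P4hb, which is also the protein disulfide isomerase of the cell, fell by 0.89 on the log2 scale (SE 0.04, adjusted p = 3.0e-13, edgeR).

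The alpha subunits fell by unequal amounts, and their shares of the family shifted. P4ha1 made up 37.7%, 37.2% and 37.5% of the summed P4ha TPM in the Control cultures and 42.2%, 43.3% and 43.9% in the Ad-OSCAR cultures. The groups did not overlap, and the difference of 5.65 percentage points had p = 0.1 in an exact two-sided permutation test, the smallest that 3 cultures against 3 can give. The share of P4ha2 went from 61.6% ± 0.222 to 56.4% ± 0.767 and that of P4ha3 from 0.874% ± 0.0748 to 0.437% ± 0.101 (SD, n = 3 each, exact permutation p = 0.1 for both). With 5-ASA the P4ha1 share was 43.2% ± 0.991, and it overlapped with Ad-OSCAR alone (exact permutation p = 1).

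The log2 fold changes of the lysyl hydroxylases were smaller than those of the prolyl 4-hydroxylases and HSP47. Plod1, whose product acts on lysines of the helix, measured 282, 275 and 289.7 TPM in Control, 209, 203 and 217 TPM with Ad-OSCAR and 189, 177 and 198 TPM with 5-ASA, a log2 fold change of -0.45 with Ad-OSCAR (SE 0.05, adjusted p = 7.9e-08, edgeR). Plod3, whose product can also attach sugars to hydroxylysine, measured 299, 268 and 297 TPM in Control, 230.4, 228 and 232 TPM with Ad-OSCAR and 219, 203 and 238 TPM with 5-ASA. Its log2 fold change with Ad-OSCAR was -0.39 (SE 0.05, adjusted p = 2.0e-06, edgeR). Both were lower in every Ad-OSCAR culture than in any Control culture.

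Plod2, the telopeptide lysyl hydroxylase, measured 446, 466 and 445 TPM in Control, 353, 327 and 380.0 TPM with Ad-OSCAR and 366, 394 and 354 TPM with 5-ASA. Ad-OSCAR lowered it by a log2 fold change of -0.39 (SE 0.05, adjusted p = 4.0e-06, edgeR). Its share of the summed Plod TPM was 44.2% ± 1.69 in Control, 44.5% ± 1.33 in Ad-OSCAR and 47.7% ± 3.08 in Ad-OSCAR + 5-ASA (SD, n = 3). The shares overlapped in both comparisons (exact permutation p = 0.9 and 0.2), and 1 treated culture at 50.9% lay above the others at 47.3% and 44.8%. The Plod1 share was 27.6% ± 0.423 in Control, 26.5% ± 0.312 in Ad-OSCAR and 24.1% ± 1.14 with 5-ASA, with no overlap between neighbouring groups (exact permutation p = 0.1 for each step). On the CPM scale the exact permutation p of the first step was 0.2.

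HSP47 had a larger log2 fold change than any hydroxylase other than P4ha3. Serpinh1 measured 2121, 1934 and 2062 TPM in Control, 833, 812 and 756 TPM with Ad-OSCAR and 927, 849.7 and 951 TPM with 5-ASA. The 3 groups did not overlap, with the treated cultures just above the Ad-OSCAR cultures and far below Control. The log2 fold change with Ad-OSCAR was -1.37 (SE 0.05, adjusted p = 8.9e-14, edgeR), a 2.58-fold lower level.

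Lox, the founding lysyl oxidase, measured 2333, 2381 and 2370.0 TPM in Control, 2949.7, 2744 and 3206 TPM with Ad-OSCAR and 2841, 2983 and 2917 TPM with 5-ASA. Each infected culture that carried Ad-OSCAR exceeded each Control culture, and the log2 fold change was 0.29 (SE 0.04, adjusted p = 4.2e-06, edgeR), a 1.22-fold rise. Loxl2, which crosslinks collagen and also acts on other substrates, measured 386, 396 and 401 TPM in Control, 438, 407 and 437 TPM with Ad-OSCAR and 391, 391.5 and 432 TPM with 5-ASA. Its rise of 0.10 (SE 0.04, adjusted p = 0.042, edgeR) lay close to the threshold: it did not pass with RLE normalization (adjusted p = 0.068), with no filter for low counts (0.062) or with limma on log2(TPM + 1) (0.069), nor when Control culture 1 (0.14) or 2 (0.094), Ad-OSCAR culture 1 (0.11) or 3 (0.078), or treated culture 1 (0.062) was left out. Loxl4, a secreted lysyl oxidase with scavenger receptor domains, measured 122, 115 and 118 TPM in Control, 15.0, 13.1 and 13.3 TPM with Ad-OSCAR and 13.9, 14.1 and 15.6 TPM with 5-ASA. It had the largest change of the 10, a log2 fold change of -3.13 (SE 0.06, adjusted p = 3.0e-18, edgeR), an 8.74-fold lower level.

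Within the lysyl oxidase family the share of Lox was higher with Ad-OSCAR. Lox made up 77.7%, 78.1% and 77.2% of the summed TPM of the 5 family genes (Lox, Loxl1, Loxl2, Loxl3 and Loxl4) in Control and 84.4%, 84.2% and 85.8% with Ad-OSCAR, a difference of 7.15 percentage points with no overlap (exact permutation p = 0.1). The Loxl4 share went from 3.88% ± 0.152 to 0.395% ± 0.0365 (SD, n = 3, exact permutation p = 0.1). Loxl1, best known for elastic fibres, and Loxl3, which also crosslinks cartilage collagen, fell by 0.94 and 0.95 on the log2 scale (edgeR, adjusted p = 2.7e-09 and 3.6e-11).

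**Figure D3:**
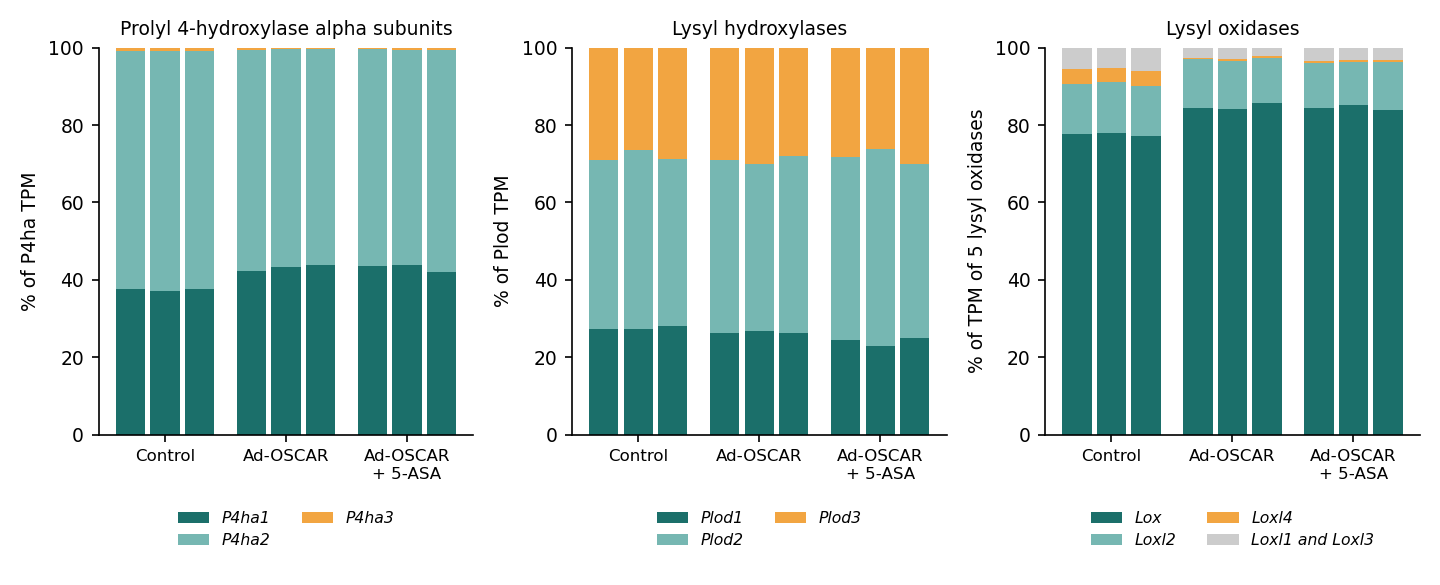
Stacked bars of the share of each gene in the summed TPM of its family, 1 bar per culture, 3 per group. P4ha1 takes 37.2% to 37.7% of the P4ha total in Control and 42.0% to 43.9% in the other cultures, and Lox takes 77.2% to 78.1% of the lysyl oxidase total in Control and 83.9% to 85.8% elsewhere, while the Plod bars overlap for Plod2.

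With 5-ASA, Serpinh1, Loxl4 and Plod2 rose slightly and the other 7 genes were not called. Against Ad-OSCAR alone 3 of the 10 rose and 0 fell (edgeR), where 10.4% of all genes tested rose and 7.38% fell, and none passed 1.5-fold with an unadjusted p below 0.05, which 4.15% of all genes tested did. The study set these limits for treated cells against Control. At an unadjusted p below 0.05 the count was 5 higher and 0 lower, and DESeq2 called 5 higher and 0 lower after adjustment. The median log2 fold change was 0.11, beside 0.00 for all genes tested. The groups did not overlap in CPM for 5 of the 10, and for 33.8% of all genes tested.

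Serpinh1 rose by 0.28 on the log2 scale (SE 0.05, adjusted p = 1.0e-03, edgeR), a 1.21-fold rise seen in all 3 treated cultures, which lay above all 3 Ad-OSCAR cultures. On log2(TPM + 1) with limma the rise was 0.18 (adjusted p = 0.062). Loxl4 rose by 0.19 (SE 0.06, adjusted p = 0.039, edgeR) and Plod2 by 0.17 (SE 0.05, adjusted p = 0.031, edgeR), and Plod2 values overlapped between the groups. Neither call held when Ad-OSCAR culture 2 (adjusted p = 0.12 for each) or treated culture 1 (0.083 for each) was left out, nor with library size alone as the scaling (0.17 for Loxl4 and 0.19 for Plod2), with only the 2 groups compared (0.053 and 0.052) or with limma on TPM (0.51 and 0.45). Plod2 also lost its call without Ad-OSCAR culture 1 (0.12) or treated culture 2 (0.15), and Loxl4 without Ad-OSCAR culture 3 (0.14) or treated culture 3 (0.15). P4ha1 had a log2 fold change of 0.11 (SE 0.04, adjusted p = 0.072) and P4ha2 of 0.10 (SE 0.04, adjusted p = 0.11), and these did not pass in the main edgeR test but did with DESeq2 (adjusted p = 0.013 and 0.019). Of the 17 alternatives, DESeq2 among them, P4ha1 passed under 2 and P4ha2 under 1. P4ha3 (0.20, adjusted p = 0.46), Plod1 (-0.07, adjusted p = 0.31), Plod3 (0.02, adjusted p = 0.82), Lox (0.07, adjusted p = 0.29) and Loxl2 (0.02, adjusted p = 0.82) did not pass (edgeR). Oscar itself fell by 0.97 on the log2 scale with 5-ASA (SE 0.06, adjusted p = 1.8e-08, edgeR), and the part of this in the values above was not tested.

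Drug-treated Ad-OSCAR cells still differed from Control in all 10 genes: 8 fell and 2 rose (edgeR), where 31.8% of all genes tested fell and 31.4% rose. With the study's limits for the drug P4ha1, P4ha2, P4ha3, Serpinh1 and Loxl4 counted as downregulated, where 15.3% of all genes tested did, and none counted as upregulated, where 14.6% did. This comparison shares its Control cultures with that of Ad-OSCAR alone and its treated cultures with that of the drug. The log2 fold change against Control was -1.09 for Serpinh1, compared with -1.37 without the drug, -2.94 against -3.13 for Loxl4, -0.22 against -0.39 for Plod2, -0.73 against -0.84 for P4ha1 and -1.03 against -1.13 for P4ha2. For Lox it was 0.36 against 0.29 and for Plod1 -0.52 against -0.45. For Loxl2 it was 0.12 (adjusted p = 0.019, edgeR), a rise that did not pass without Control culture 1 (0.077), without treated culture 3 (0.090) or with limma on TPM (0.56).

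The substrates of these enzymes, the fibrillar procollagens, changed in both directions. Of 9 genes 6 fell and 3 rose with Ad-OSCAR, where 32.2% of all genes tested fell and 32.7% rose, with a median log2 fold change of -1.67. Col2a1, the main collagen chain of cartilage, had a mean of 12071 TPM in Control, 779 TPM in Ad-OSCAR and 883 TPM with 5-ASA, and fell by 3.97 on the log2 scale. The chains Col11a2 (-4.91), Col11a1 (-2.75), Col1a2 (-2.38) and Col1a1 (-1.67) also passed the study's limits, as did Col5a3 in the other direction (1.92). Col3a1 and Col5a2, chains common in fibrous tissue, rose, from a mean of 2015 to 3503 TPM and from 1488 to 2625 TPM. With 5-ASA 5 of the 9 rose and 0 fell (edgeR), where 10.4% of all genes tested rose and 7.38% fell, among them Col1a2 by 0.60 on the log2 scale.

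The levels were then set against the summed TPM of these substrates. Col2a1 was the largest part of this sum in Control (mean 12071 TPM). In Ad-OSCAR it lay at 779 TPM, beside 3503 TPM for Col3a1. The ratios therefore depend on the fall of Col2a1, and ratios without it were not computed. Serpinh1 held 9.12, 9.01 and 9.69 TPM per 100 TPM of the 9 fibrillar procollagens in Control, 9.04, 9.58 and 8.98 in Ad-OSCAR and 9.68, 9.30 and 9.69 with 5-ASA. These values overlapped, and the difference between Ad-OSCAR and Control was -0.07 (exact permutation p = 0.6), with 0.13 (exact permutation p = 0.3) when the ratio was taken from CPM. Lox, by contrast, held 10.0, 11.1 and 11.1 TPM per 100 in Control and 32.0, 32.4 and 38.1 in Ad-OSCAR, a 3.18-fold higher ratio without overlap (exact permutation p = 0.1), and 30.7 ± 1.71 (SD, n = 3) with 5-ASA. The 3 Plod genes together held 4.66 ± 0.219 in Control, 9.14 ± 0.646 in Ad-OSCAR and 8.20 ± 0.229 with 5-ASA (SD, n = 3), and neighbouring groups did not overlap (exact permutation p = 0.1 for each step). The 3 P4ha genes held 4.47 ± 0.243, 5.70 ± 0.283 and 5.25 ± 0.250, without overlap between Control and Ad-OSCAR (exact permutation p = 0.1) and with overlap after 5-ASA (exact permutation p = 0.2). P4hb measured 172 ± 4.77 TPM per 100 TPM of P4ha in Control, 187 ± 4.99 in Ad-OSCAR and 161 ± 9.21 with 5-ASA, without overlap between neighbouring groups (exact permutation p = 0.1 for each step). In all, 14 such ratios were compared in 2 comparisons, and none of the 28 tests can give a p below 0.1, before or after adjustment.

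**Figure D4:**
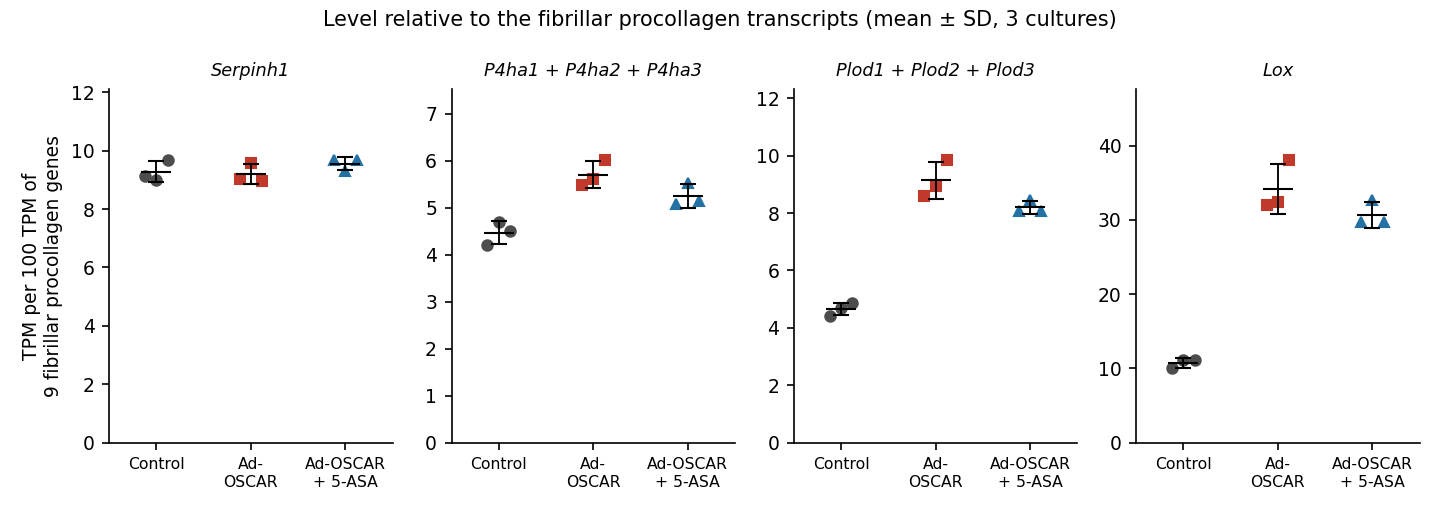
TPM of Serpinh1, of the 3 P4ha genes, of the 3 Plod genes and of Lox per 100 TPM of the 9 fibrillar procollagen genes (y axes from 0), with 1 point per culture and the mean ± SD of 3 cultures in black. Serpinh1 stays between 8.98 and 9.69 in all 9 cultures, while Lox lies at 10.0 to 11.1 in Control and at 29.7 to 38.1 in the others. The procollagen sum includes Col2a1, which went from a mean of 12071 TPM in Control to 779 TPM in Ad-OSCAR.

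Other genes of the pathway moved mostly downwards with Ad-OSCAR, where 32.2% of all genes tested fell and 32.7% rose, beside 7.38% and 10.4% with 5-ASA for the counts that follow. All 6 genes of prolyl 3-hydroxylation and prolyl isomerisation fell (median log2 fold change -0.93), and 0 of 6 were called with 5-ASA (edgeR). Of 8 further chaperones and partners in the endoplasmic reticulum 7 fell (median -0.86), and Tmem38b, an ion channel of that compartment, rose by 1.56 (SE 0.06), from 9.75 to 10.4 TPM in Control to 30.1 to 31.2 TPM. With 5-ASA 2 of these 8 rose and 2 fell. Both collagen galactosyltransferases fell, Colgalt2 by 1.78 from 7.46 to 7.89 TPM to 1.93 to 2.63 TPM.

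Of 8 procollagen proteinases and their enhancers 6 fell and 1 rose with Ad-OSCAR. Pcolce2, an enhancer of the C-proteinase, fell by 3.28 on the log2 scale (SE 0.09), from 16.2 to 24.1 TPM to 2.21 to 3.03 TPM, and Adamts14, an N-proteinase, by 1.55 (SE 0.12). Tll2, a proteinase related to Bmp1, was called higher on 9 to 17 counts per culture against 0 to 2 in Control. With 5-ASA 3 of the 8 rose and 0 fell. Of 6 genes of procollagen export 4 fell and 1 rose with Ad-OSCAR, and 0 were called with 5-ASA. Of 4 genes for the supply of the cofactors ascorbate and copper 3 were tested, of which 1 fell and 1 rose, and 0 were called with 5-ASA.

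The remaining lysyl oxidases, Loxl3 and Loxl1, both rose with 5-ASA. Loxl3 measured 83.7, 83.2 and 94.3 TPM in Control, 46.3, 50.8 and 43.8 TPM with Ad-OSCAR and 67.6, 65.5 and 60.5 TPM with 5-ASA. No value overlapped between groups, and the rise with 5-ASA was 0.61 on the log2 scale (SE 0.06, adjusted p = 5.7e-07, edgeR), with 0.45 to 0.68 over the 17 alternatives. Against Control it stayed 1.27-fold lower in treated cells (adjusted p = 2.5e-05, edgeR). Loxl1 rose by 0.32 (SE 0.07, adjusted p = 5.9e-03, edgeR), or 0.22 with limma on TPM (adjusted p = 0.11). Whether these changes differ from those of Lox, Loxl2 and Loxl4 was not tested.

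Because prolyl hydroxylases of collagen include hypoxia targets, 10 hypoxia response genes were also counted. With Ad-OSCAR 6 fell and 3 rose (median -0.23), Ndrg1 by the largest amount (-1.69, SE 0.05), and with 5-ASA 5 rose and 1 fell (median 0.17), beside the same shares of all genes tested. Of the oxygen-sensing and related prolyl hydroxylases (4 genes) 2 rose and 1 fell with Ad-OSCAR, and 1 rose with 5-ASA.

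**Figure D5:**
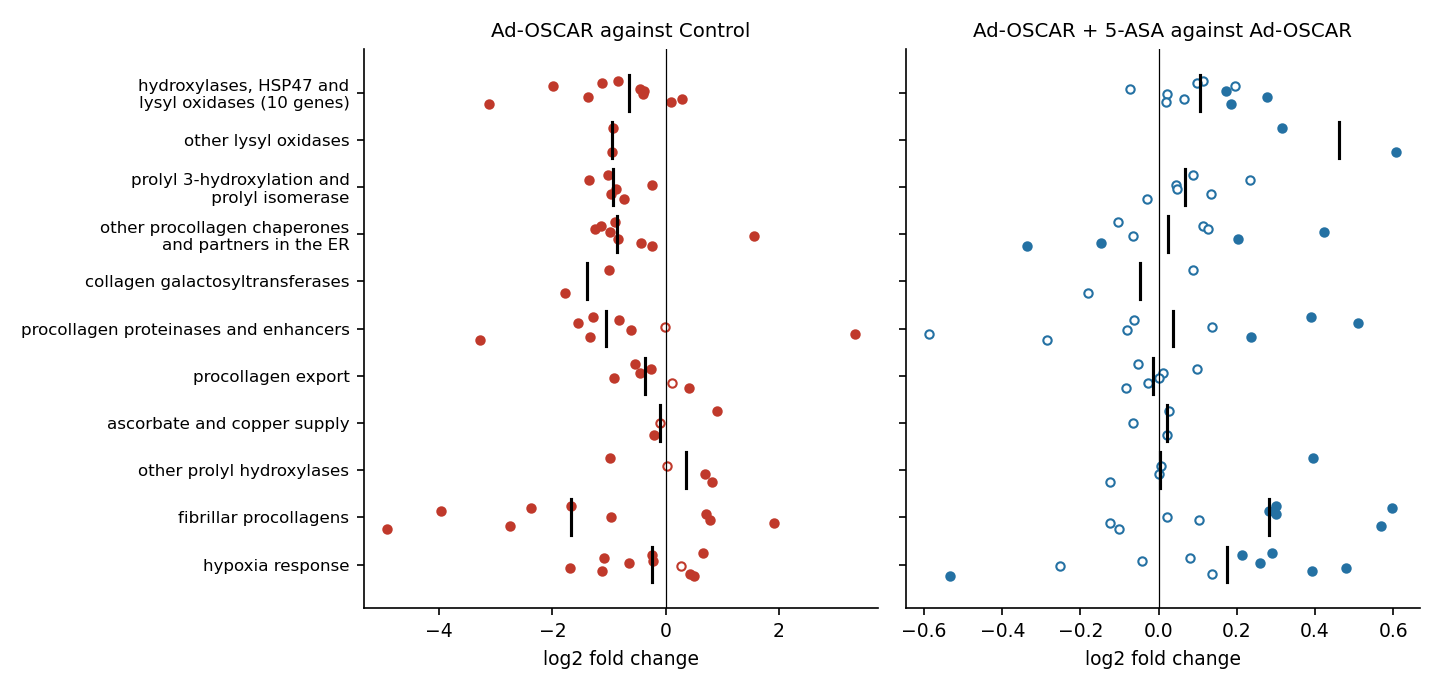
Log2 fold change (x axis, with different ranges in both panels) of every tested gene in each list, for Ad-OSCAR against Control on the left and Ad-OSCAR + 5-ASA against Ad-OSCAR on the right. Filled points have an adjusted p below 0.05 and black bars are list medians, which lie at -0.65 on the left and 0.11 on the right for the 10 genes described, and at -1.67 and 0.28 for the fibrillar procollagens.

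The genes with the most similar profile over the 9 cultures were found by the root mean square distance of mean-centred log2 CPM among 13266 genes with a mean of at least 1 CPM. For Serpinh1 they were Pcolce (0.037), an enhancer of procollagen C-proteinase, Hspb6 (0.047) and Tgfb3 (0.048). For P4ha1 they were Oxr1 (0.015), Stt3b (0.024) and Stt3a (0.029), of which Stt3b and Stt3a are catalytic subunits of the oligosaccharyltransferase that attaches N-glycans. For Plod2 they were Zbtb1 (0.032), Eif4g2 (0.040) and Dusp11 (0.041), and for Lox Aff4 (0.029), Selenot (0.031) and Zfp799 (0.037).

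In GENCODE M21 (GRCm38) P4ha1 spans chromosome 10 from 59323296 to 59373304, P4ha2 chromosome 11 from 54100095 to 54131665, P4ha3 chromosome 7 from 100285520 to 100319699 and Serpinh1 chromosome 7 from 99345376 to 99353239. Plod1 spans chromosome 4 from 147909753 to 147936767, Plod2 chromosome 9 from 92542223 to 92608428, Plod3 chromosome 5 from 136987019 to 136996648, Loxl2 chromosome 14 from 69609068 to 69695834 and Loxl4 chromosome 19 from 42593982 to 42612813. P4ha3 and Serpinh1 thus lie within a megabase of each other. Plod2, Plod3, Lox and Loxl2 overlap genes on the opposite strand, and whether reads were counted by strand is not given in the sources used here. The largest of these partners, Znhit1 at Plod3, had 469.7 to 782 counts against 7193 to 8869 for Plod3, and the one at Lox had 31 to 90.0 counts against at least 123949. The mean transcript length that entered TPM stayed within 3032 to 3109 bases for P4ha1, 2169 to 2188 bases for Serpinh1 and 4659 to 4721 bases for Lox over the 9 cultures. It ranged more widely for Plod3 (2228 to 2447 bases) and P4ha3 (1985 to 2213 bases), which enters their TPM and shares.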

How the data were processed

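The authors trimmed paired reads of 100 bases from stranded mRNA libraries with BBDuk, aligned them to GRCm38 with STAR 2.7.1a and quantified genes with RSEM 1.3.1. Their deposited files hold expected counts, TPM and FPKM per gene. The expected counts, which RSEM may split between genes, were not whole for 24.8% to 25.9% of detected genes and were rounded here. All 9 cultures were fitted with group as the only factor in edgeR 4.0.16 (R 4.3.3) by TMM, filterByExpr and the quasi-likelihood F test, with Benjamini-Hochberg adjustment over 15362 genes (threshold 0.05, biological coefficient of variation 5.11%). Depth was 19733448 to 28192740 counts per culture. Symbols and positions are from GENCODE M21. The study's methods use DESeq2, tried here (1.42.0) as an alternative, with limma 3.58.1 on log2(TPM + 1), other scalings and filters, only 2 groups, the replicate block, FPKM for ratios, and each culture left out. Ratios of TPM were compared by exact two-sided permutation tests in scipy 1.17.1, and 10 of the 14 were chosen after values were seen. Scripts were tested on simulated data.

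The 10 genes and all lists were chosen with earlier results of these data known. Besides them the text names genes of the pathway lists with an adjusted p below 0.05 and a log2 fold change beyond 1.5 (Ad-OSCAR) or a fold beyond 1.5 (5-ASA), the 3 nearest profiles of Serpinh1, P4ha1, Plod2 and Lox, and Oscar. This rule was not applied to the cell type markers. Loxl1, Col3a1, Col5a2, P4hb, Saa3 and the single fibroblast, macrophage and osteoclast markers were named after their values were seen. No sequence or position is given for Lox.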

Additional observations from a re-analysis of the deposited data

How the results depend on the processing

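In Ad-OSCAR against Control, the fall of P4ha1, P4ha2, P4ha3, Plod1, Plod2, Plod3, Serpinh1 and Loxl4 and the rise of Lox kept their direction and passed the threshold under all 17 alternatives. The number of genes that rose was 2 in the main test, 1 with RLE normalization, without a filter on low counts or with limma on log2(TPM + 1), and 1 to 2 when single cultures were left out, Loxl2 being the gene in question. With 5-ASA the number that rose was 3 in the main test, 1 with library size alone or with only the 2 groups compared, 5 with DESeq2, 0 with limma and 1 to 3 when single cultures were left out, and with library size alone 1 gene fell (Plod1, -0.14, adjusted p = 0.029, edgeR). In treated cells against Control the number that rose was 1 with limma and 1 to 2 when single cultures were left out, in place of 2.

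Library size alone moved the median log2 fold change of all genes by 0.13 for Ad-OSCAR and by -0.07 for 5-ASA, and limma on TPM moved the latter by -0.08, which TMM removes. The genes that rose and fell then numbered 6609 and 3907 in place of 5031 and 4952 for Ad-OSCAR, and 1057 and 2523 (limma 562 and 1487) in place of 1598 and 1134 for 5-ASA. With 5-ASA the log2 fold changes of genes that were not called changed sign under these settings: Plod3 (-0.048 with library size alone, -0.069 with limma), Lox (-0.0053 and -0.023) and Loxl2 (-0.053 and -0.078). When cultures were left out Plod3 ranged from -0.019 to 0.076 and Loxl2 from -0.015 to 0.037. The Serpinh1 ratio to procollagen differed by 0.13 when taken from CPM, and by -0.26 to 0.14 when cultures were left out. Shares that overlapped also changed sign when cultures were left out, in percentage points: Plod2 with Ad-OSCAR (-0.41 to 1.21) and, with 5-ASA, P4ha1 (-0.44 to 0.59), P4ha2 (-0.59 to 0.38), P4ha3 (-0.041 to 0.060), Plod3 (-1.80 to 0.16) and Lox (-0.63 to 0.21). The cause was not tested.

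The replicate number as a block moved calls from 9983 to 9882 for Ad-OSCAR and from 2732 to 2500 for 5-ASA and changed no call among the 10 genes. Same-numbered cultures had correlations of -0.072 to 0.040 in their deviations from the group means, so the values showed no sign of pairing by number. Such correlations cannot tell whether same-numbered cultures were prepared together. Depth limits P4ha3, with at most 88 counts in an Ad-OSCAR culture.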
